A study of Homo sapiens with 8 samples.

Results

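The genes described here encode transcription factors best known from the liver and from other organs of endodermal origin. They are the nuclear receptors HNF4G and NR5A2, the forkhead factors FOXA1, FOXA2 and FOXA3, and the C/EBP factors CEBPA, CEBPB and CEBPD. Each was read from the probe sets that carry its symbol alone, taking the one with the highest mean signal. All 8 had such a probe set, of 18377 genes that had one in all, and their signal was at or above 30 on all 8 arrays. HNF4A was not analysed here.

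The arrays held RNA from A549 cells, a human lung adenocarcinoma line with features of alveolar type II cells, grown to confluence and exposed to gas mixtures for 4 hr, with RNA collected 9 hr after exposure. There were 4 groups of 2 arrays. The primary pollutants (fresh urban mix) were a morning exposure to a mixture of hydrocarbons and nitrogen oxides, and the PCA pollutants (photochemically altered, aged urban mix) were an evening exposure to the same chamber air after it had reacted in sunlight. Each had its own unexposed control of the same time of day, in humidified air per the labels, here called the morning control and the evening control. Arrays of a group came from 1 exposure run, both mixtures were drawn on the same day, and so mixture, time of day and run cannot be told apart.

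HNF4 proteins bind DNA as dimers at repeats of a nuclear receptor site and turn on genes for plasma proteins, lipid transport and gut brush borders. NR5A2, also called LRH-1, binds DNA as a monomer and acts on genes of bile acid and cholesterol handling. FOXA proteins can open closed chromatin and are needed for liver and lung development. C/EBP proteins are leucine zipper factors that drive differentiation and, in the case of CEBPB and CEBPD, acute phase and cytokine genes. These families, together with HNF1, act on many of the same promoters.

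Promoters are given here for some of the genes on which the results turn. A search was made in the 250 bases before each of 35114 human transcription starts (RefSeq, GRCh38.p14) for short motifs on both strands. The HNF1 arm GTTAAT was found in 6.23% of these promoters, the HNF4 motif CAAAGTCCA in 0.325%, the FOXA motifs TGTTTAC and TGTTTGC in 2.98% and 3.23%, the NR5A2 motif CAAGGTCA in 1.14%, and the C/EBP motif TTNNGCAA in 9.05%. The stricter C/EBP motif TTGCGCAA, which is one case of the former, was in 0.131%. Of the 8 genes, 5 were matched in the promoter table, and HNF4G was not among them. The sequences below run 5′ to 3′ on the strand of the gene and end just before the start, with capitals on the bases that match one of these motifs, and no 2 of the matches shown overlap. NR5A2 is shown at both of its listed starts because it changed most of the 8 genes, and FOXA1 because its PCA value lay just short of the fold limit. FGA, FGB, FGG, APOH and MYO1A are listed HNF1 or HNF4 target genes that fell after the PCA pollutants, and FGG is shown beside the other fibrinogen genes although it held no match.
NR5A2, start 1, chr1:200027460-200027709, plus strand: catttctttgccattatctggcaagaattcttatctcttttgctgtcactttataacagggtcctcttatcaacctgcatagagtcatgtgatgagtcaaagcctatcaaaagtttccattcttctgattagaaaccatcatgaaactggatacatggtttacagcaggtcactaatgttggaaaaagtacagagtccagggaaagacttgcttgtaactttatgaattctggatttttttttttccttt
NR5A2, start 2, chr1:200042341-200042590, plus strand: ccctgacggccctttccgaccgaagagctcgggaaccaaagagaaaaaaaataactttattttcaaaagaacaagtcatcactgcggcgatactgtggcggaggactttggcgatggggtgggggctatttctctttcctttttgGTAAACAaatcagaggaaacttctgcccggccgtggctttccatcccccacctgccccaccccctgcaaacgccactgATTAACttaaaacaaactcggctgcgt
FOXA1, chr14:37595250-37595499, minus strand: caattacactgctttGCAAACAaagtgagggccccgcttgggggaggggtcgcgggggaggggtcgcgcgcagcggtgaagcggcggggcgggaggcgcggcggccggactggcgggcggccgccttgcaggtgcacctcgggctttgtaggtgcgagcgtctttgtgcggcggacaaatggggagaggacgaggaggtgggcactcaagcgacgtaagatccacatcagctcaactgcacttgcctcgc
FGA, chr4:154590743-154590992, minus strand: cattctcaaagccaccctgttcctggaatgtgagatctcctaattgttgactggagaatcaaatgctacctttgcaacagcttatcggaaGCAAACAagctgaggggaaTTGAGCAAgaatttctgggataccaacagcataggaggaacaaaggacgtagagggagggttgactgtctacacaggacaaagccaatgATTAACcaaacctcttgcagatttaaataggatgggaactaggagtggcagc
FGB, start 1, chr4:154562730-154562979, plus strand: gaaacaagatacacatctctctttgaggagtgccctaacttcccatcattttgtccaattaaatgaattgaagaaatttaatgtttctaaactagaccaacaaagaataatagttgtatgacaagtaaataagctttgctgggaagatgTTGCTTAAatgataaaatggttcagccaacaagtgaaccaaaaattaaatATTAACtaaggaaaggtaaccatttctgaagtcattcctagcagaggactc
FGG, chr4:154612657-154612906, minus strand: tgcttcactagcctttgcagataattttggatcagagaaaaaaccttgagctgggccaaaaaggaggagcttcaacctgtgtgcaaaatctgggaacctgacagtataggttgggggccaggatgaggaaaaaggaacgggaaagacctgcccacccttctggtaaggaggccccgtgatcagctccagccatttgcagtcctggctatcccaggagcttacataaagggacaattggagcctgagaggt
APOH, chr17:66229416-66229665, minus strand: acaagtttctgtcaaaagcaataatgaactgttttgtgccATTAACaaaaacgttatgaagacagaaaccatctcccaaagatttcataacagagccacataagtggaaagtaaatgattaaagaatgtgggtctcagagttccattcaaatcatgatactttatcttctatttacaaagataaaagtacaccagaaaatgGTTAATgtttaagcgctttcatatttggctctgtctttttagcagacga
MYO1A, start 2, chr12:57050130-57050379, minus strand: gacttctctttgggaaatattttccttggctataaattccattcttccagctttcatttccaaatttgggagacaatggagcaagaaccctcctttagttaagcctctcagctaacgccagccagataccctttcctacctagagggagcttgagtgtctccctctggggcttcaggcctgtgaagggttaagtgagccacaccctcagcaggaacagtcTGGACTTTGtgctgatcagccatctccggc

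The second NR5A2 start held a FOXA match (TGTTTAC on the reverse strand, from -105 to -99) and an HNF1 arm (from -27 to -22), while the first start held none of these motifs. The probe set of NR5A2 cannot tell its starts apart. FOXA1 held 1 match, the FOXA variant TGTTTGC from -235 to -229. In FGA and FGB, which encode 2 of the chains of fibrinogen, an HNF1 arm lay at nearly the same distance from the start, from -52 to -47 and from -51 to -46 for the start shown of FGB, though the same arm lies from -82 to -77 of the second listed start of FGB. FGG, the third chain, held none of these motifs. FGA also held a FOXA variant from -160 to -154 and a C/EBP match from -141 to -134, and FGB a C/EBP match from -101 to -94. APOH, a plasma glycoprotein gene, held 2 HNF1 arms, from -49 to -44 and from -210 to -205. MYO1A, a brush border myosin gene, held the HNF4 motif from -30 to -22 of its second start and none of these motifs at its first. Some called target genes were searched but are not shown. Of these, XBP1, a listed FOXA target, held neither FOXA motif, and CXCL8, a listed C/EBP target, held no C/EBP match. SERPINA6, a listed NR5A2 target, held no NR5A2 motif, though it held HNF1 arms and both FOXA motifs. No promoter was read for the called targets CDH1, VIL1 and SCARB1. A match is a description of the letters in this window.

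Signals are on the log2 scale of the deposited values, which had been normalized by robust multichip average. Rose and fell are used of genes that passed in limma, which means a Benjamini-Hochberg adjusted p below 0.05 over all tested probe sets together with a fold change of 1.5 or more. One fit to the 4 groups gave the spread, from 4 residual degrees of freedom before moderation. Array medians ran from 6.93 to 7.03, and the 2 PCA arrays had the lowest median correlation with the other arrays, 0.9895 and 0.9899, against 0.9938 or more. With each other the 2 PCA arrays correlated at 0.9942. The 2 primary arrays did so at 0.9939, those of the evening control at 0.9963 and those of the morning control at 0.9965. Of the cell type markers read, 6 of 6 epithelial and 9 of 11 alveolar type II markers had a probe set. Each of these was at or above 30 on all 8 arrays. NKX2-1, the type II lineage factor, lay between 35.5 and 57.4 on the linear scale. Among hepatocyte markers, ALB lay between 28.9 and 40.5 and ARG1 stayed under 30 on every array, while CPS1 ran from 2210 to 3220. PTPRC, which marks leukocytes, was under 30 on every array, but 3 of the 4 leukocyte markers reached 30 on an array of the PCA comparison. So did 6 of 7 fibroblast, 3 of 3 endothelial and 7 of 8 hepatocyte markers, and 17470 of all 18377 genes. A signal of 30 therefore does not tell cell types apart here. In bulk RNA, fewer cells of a type and less RNA per cell cannot be told apart.

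The first question was whether the exposures altered the genes themselves. NR5A2 and HNF4G fell after the PCA pollutants, and none of the 8 genes rose or fell after the primary pollutants. NR5A2 was 1.87-fold lower and HNF4G 1.66-fold lower than in the evening control. The other 6 genes did not pass the test. Over all 17470 genes tested, 3.53% were called after the PCA pollutants (0.876% higher and 2.66% lower), against 2 of the 8 genes, both lower, and 37% had an unadjusted p under 0.05, against 4 of the 8 genes. After the primary pollutants 0% of 17381 genes were called, and 7.96% had an unadjusted p under 0.05, against 0 of the 8 genes. The 8 genes were chosen with earlier results of these data known, so these counts are no independent evidence.

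HNF4G encodes the gamma form of HNF4, known mainly from gut, kidney and pancreas. Its signal was 6.84 and 6.65 in the morning control, 6.63 and 6.63 with the primary pollutants, 6.86 and 6.73 in the evening control, and 6.08 and 6.05 with the PCA pollutants. Both PCA arrays lay below all 6 other arrays, which among themselves spread over 6.63 to 6.86. The PCA log2 fold change was -0.73 (SE 0.0875, n = 2 arrays per group, adjusted p = 0.00282 in limma). The primary log2 fold change was -0.11 (SE 0.0873, adjusted p = 0.772), with a 95% interval of -0.317 to 0.089.

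NR5A2 gave 9.71 and 9.62 in the morning control, 9.62 and 9.72 with the primary pollutants, 9.77 and 9.78 in the evening control, and 8.79 and 8.95 with the PCA pollutants. Again the PCA arrays lay below all others, and the morning control and primary arrays covered nearly the same range. The PCA log2 fold change was -0.91 (SE 0.0833, adjusted p = 0.00134 in limma) and the primary one 0.00 (SE 0.0832, adjusted p = 0.997), with a 95% interval of -0.19 to 0.196. That interval stays within the fold limit in both directions.

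**Figure D1:**
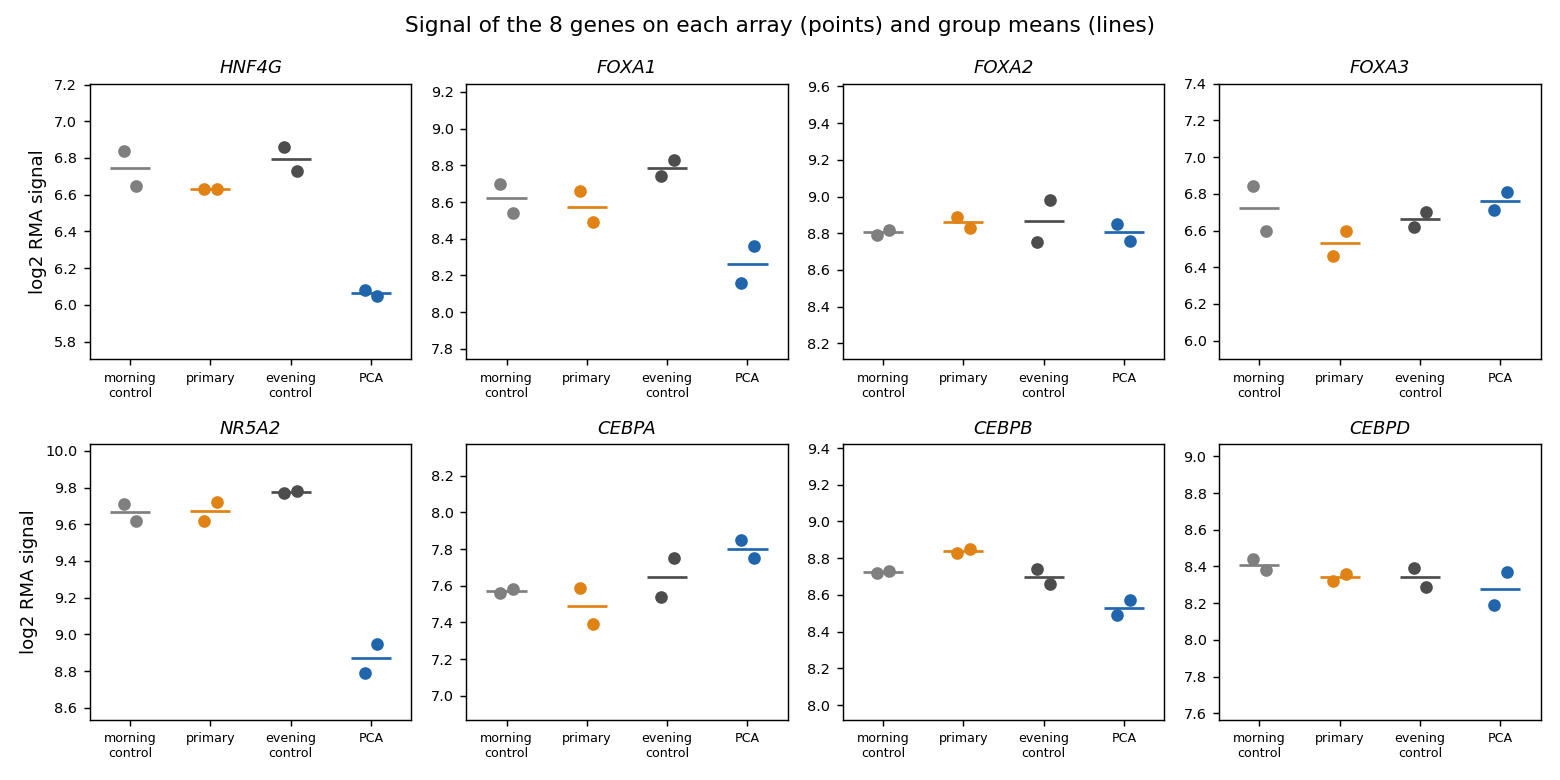
Each panel plots the log2 RMA signal of 1 of the 8 genes (y axis) in the 4 groups (x axis), with a point for each array and a line at the group mean; the axes differ in position between panels and span the same number of log2 units. The PCA arrays of HNF4G (6.08 and 6.05) and NR5A2 (8.79 and 8.95) lie below every other array, while those of FOXA2 lie between its evening control arrays.

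Of the 3 FOXA genes, FOXA1 had the PCA value farthest from 0. It gave 8.74 and 8.83 in the evening control and 8.16 and 8.36 with the PCA pollutants, against 8.70 and 8.54 in the morning control and 8.66 and 8.49 with the primary pollutants. The PCA arrays were again the lowest of the 8, but the log2 fold change of -0.53 (SE 0.103, adjusted p = 0.014 in limma) is 1.44-fold and missed the fold limit. Without the second PCA array it was -0.62 and passed, and with arrays centred on their medians it was -0.59 and passed. It was -0.431 (adjusted p = 0.0589) without the first PCA array, -0.383 with ribosomal scaling and -0.363 against the morning control, and without the first or the second evening control array the adjusted p was 0.0551 and 0.0857.

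FOXA2, the form that acts earliest in endoderm, spread over 8.75 to 8.98 across all 8 arrays, and its evening control arrays enclosed both PCA arrays. Its PCA log2 fold change was -0.06, with a 95% interval of -0.277 to 0.157. FOXA3, which is found mainly in adult liver and gut, spread over 6.46 to 6.84, and its PCA log2 fold change was 0.10, with an interval of -0.136 to 0.332. For both, the interval stays within the fold limit, though a p that misses the threshold (adjusted p = 0.662 and 0.5 in limma) does not show that the groups were alike.

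The C/EBP genes gave smaller values of both signs. CEBPB, the form induced in the acute phase, gave 8.74 and 8.66 in the evening control and 8.49 and 8.57 with the PCA pollutants, and 8.72 and 8.73 in the morning control and 8.83 and 8.85 with the primary pollutants. The PCA arrays lay below their control and the primary arrays above theirs, but neither comparison passed, at log2 fold changes of -0.18 (SE 0.0708, adjusted p = 0.111 in limma) and 0.11 (SE 0.0708, adjusted p = 0.71). CEBPA, which drives terminal differentiation, gave 7.54 and 7.75 in the evening control and 7.85 and 7.75 with the PCA pollutants, a log2 fold change of 0.16 (SE 0.102, adjusted p = 0.295). CEBPD, an early acute phase factor, spread over 8.19 to 8.44 across the 8 arrays, with log2 fold changes of -0.07 after the primary and -0.06 after the PCA exposure.

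Counted by overlap, the PCA arrays of 4 of the 8 genes were both below their control arrays, and those of 2 were both above, against 36.6% and 31.7% of all genes (68.3% either way). For the primary pollutants these counts were 3 and 2, against 21.7% and 17% (38.7% either way). The median log2 fold change of the 8 genes was -0.119 with the PCA pollutants and -0.059 with the primary ones, against -0.002 and -0.007 over all genes tested. Scaling the arrays to 58 ribosomal protein genes turned both medians of the 8 genes positive, to 0.026 and 0.037, while the PCA median of all genes moved to 0.143. Under that scaling the genes called after the PCA pollutants were 442 higher and 191 lower, against 153 and 464 in the deposited scale, and HNF4G and NR5A2 were still called, at -0.587 and -0.762.

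**Figure D2:**
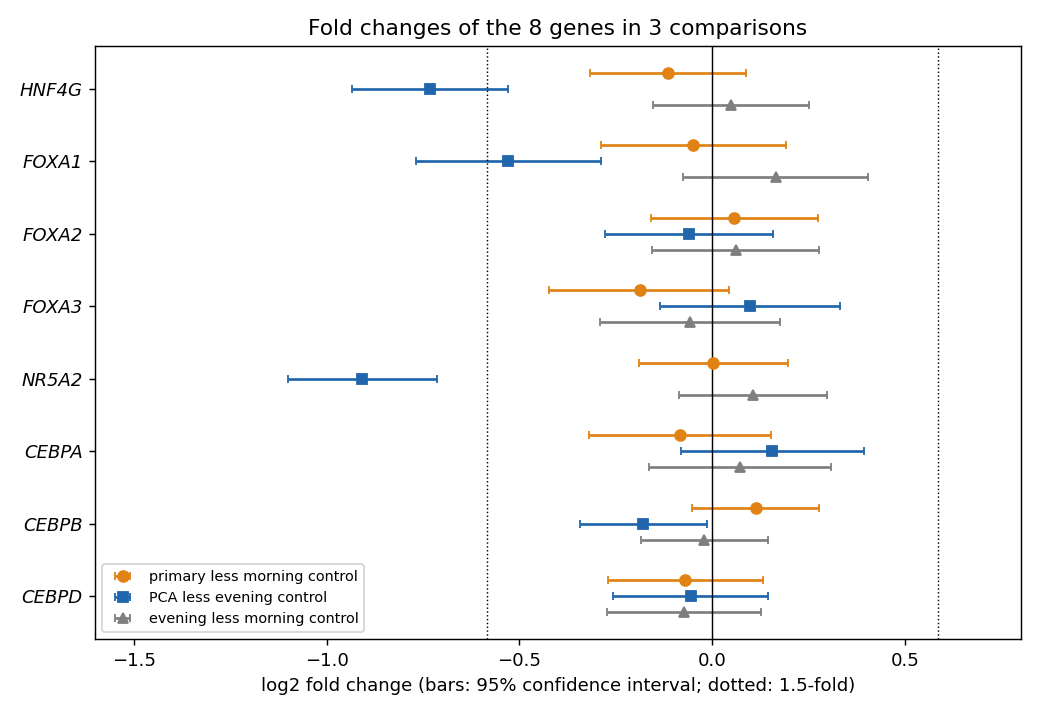
Points show the log2 fold change (x axis) of each of the 8 genes (y axis) for the primary pollutants, the PCA pollutants and the evening against the morning control, with bars for the 95% confidence interval from limma and dotted lines at 1.5-fold. Only the PCA points of HNF4G (-0.73) and NR5A2 (-0.91) lie beyond a dotted line, and that of FOXA1 (-0.53) lies just inside it.

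The next question was whether a gene responded differently to the PCA than to the primary pollutants, tested as the difference between the responses. NR5A2 was the 1 gene of the 8 that passed, against 0.439% of 17540 genes tested (0.348% lower and 0.0912% higher), and 4 of the 8 had an unadjusted p under 0.05, against 17.6%. Its PCA response was lower than its primary response by 1.88-fold, a log2 difference of -0.91 (SE 0.118, 95% interval -1.184 to -0.635, adjusted p = 0.0359 in limma). HNF4G differed by -0.62 (SE 0.124, adjusted p = 0.0801) and FOXA1 by -0.48 (SE 0.146, adjusted p = 0.161), and neither passed. CEBPB differed by -0.29 (SE 0.1, adjusted p = 0.198) and FOXA3 by 0.29 (SE 0.143, adjusted p = 0.348). The NR5A2 call did not hold when any 1 of the 8 arrays was left out (adjusted p from 0.0603 to 0.192), nor with the replicate number as a block (0.0852), with no minimum signal (0.0524) or with the controls exchanged (0.0642, at a log2 difference of -0.698). Its sign was the same in all of these.

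The controls differed in time of day and also in run, so a comparison of them cannot tell these apart. It does show how far the evening control lay from the morning control. Between the evening and the morning control 0% of 17310 genes were called in limma, 5.08% had an unadjusted p under 0.05, and 0 of the 8 genes did so. The 8 log2 differences ran from -0.072 for CEBPD to 0.165 for FOXA1. HNF4G differed by 0.049 (95% interval -0.153 to 0.252) and NR5A2 by 0.106 (95% interval -0.087 to 0.299). Both control arrays of the evening lay above both of the morning for NR5A2 and FOXA1, and the arrays overlapped for the other 6 genes, against 22.1% of all genes above and 19.7% below (41.7% either way). Set against the morning control instead, the PCA log2 fold changes were -0.683 for HNF4G and -0.801 for NR5A2, and both were still called.

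Related factors were read from lists of genes. The lists were chosen with results of these arrays known and share members, so their counts are no independent evidence. The list of other liver-type and endodermal factors held 32 genes, of which 24 had a probe set with their symbol alone. HNF4A was on the list but not among the 24, so the counts say nothing of it. Of the 24 tested, 0 were called after the PCA pollutants and 7 had an unadjusted p under 0.05, against 3.53% and 37% of all genes. HHEX, a homeobox factor of liver and pancreas, came nearest on the falling side at a log2 fold change of -0.46 (adjusted p = 0.00657 in limma, under the fold limit). RORA, a nuclear receptor of lipid metabolism and the body clock, had the highest value of this list at 0.41 (adjusted p = 0.00754 in limma, under the fold limit). This RORA value was chosen after its values were seen. Among 13 other C/EBP genes and partners 0 were called, and STAT3, which acts with C/EBP factors on acute phase genes, was at -0.42 (adjusted p = 0.0129, under the fold limit).

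Coregulators, proteins that act with nuclear receptors and other transcription factors, had a median of -0.155 after the PCA pollutants over 19 genes tested. The median over all genes tested was -0.002. That of the coregulators was the lowest of the 9 lists except with a minimum signal of 100, where that of HNF1 targets was -0.203. Of the 19, 2 fell and 0 rose, against 2.66% and 0.876% of all genes. NRIP1, a corepressor of nuclear receptors also called RIP140, gave 10.14 and 10.13 in the evening control and 9.41 and 9.40 with the PCA pollutants, and fell by 0.73 on the log2 scale (SE 0.0708, adjusted p = 0.00168 in limma). NCOA2, a coactivator of the same receptors, fell by 0.59 (SE 0.0942, adjusted p = 0.0072), and its call did not hold without the second evening control array (adjusted p = 0.0528) or without the second PCA array (log2 fold change -0.514). Scaled to ribosomal protein genes, NRIP1 was at -0.582 and NCOA2 at -0.448, both under the fold limit. Against the morning control NCOA2 was at -0.522, under the fold limit, while NRIP1 was at -0.619 and still called. Of 15 other forkhead genes tested 1 fell, against 2.66% of all genes. It was FOXN3, a repressor of the forkhead family, lower by 0.78 (SE 0.14, adjusted p = 0.0105 in limma). Its PCA arrays, 7.81 and 8.25, lay far apart, and the call did not hold without the first PCA array (log2 fold change -0.559) or without either evening control array (adjusted p = 0.0596 and 0.052).

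Listed target genes were then counted by factor. Over the 9 lists, 14 of 171 distinct genes tested were called after the PCA pollutants, 13 lower and 1 higher, or 8.19% against 3.53% of all genes. That share covers the related factors and coregulators above as well as the target genes. Most genes of each list did not pass. With ribosomal scaling, which moved the median of all genes to 0.143, the PCA medians of HNF1 targets, NR5A2 targets and other forkhead genes turned positive, to 0.128, 0.135 and 0.097, and with median centring those of the other liver-type factors and of the C/EBP partners turned negative, to -0.006 and -0.036. With a minimum signal of 100, which moved the median of all genes to -0.063, those of HNF4 targets, FOXA targets and C/EBP partners turned negative, to -0.047, -0.018 and -0.031, and that of HNF1 targets was -0.203. The HNF1 median was positive with no minimum signal (0.031), and with exchanged controls it was 0.045, that of NR5A2 targets 0.098 and that of C/EBP partners -0.023. After the primary pollutants 0 were called in any list, against 0% of all genes. The smallest p values within their own lists then belonged, among others, to NR0B2, a partner that represses NR5A2 (log2 fold change 0.22, adjusted p = 0.499 in limma), to the clock-controlled factor DBP (-0.26, adjusted p = 0.47), to the coactivator KAT2B (-0.20, adjusted p = 0.553) and to TF, the transferrin gene and an HNF4 target (-0.31, adjusted p = 0.541). In the difference between the responses 2 genes of the lists passed, CDH1 and CXCL8, against 0.439% of all genes. NRIP1 at -0.63 (adjusted p = 0.0535), FGA at -0.65 (adjusted p = 0.0664), RORA at 0.46 (adjusted p = 0.0798) and MYO1A at -0.72 (adjusted p = 0.0812) did not. Between the controls 0 were called, and the listed genes farthest above the morning control included TF at 0.51, C3 at 0.50 and FGA at 0.39 (adjusted p = 0.999 for each).

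The HNF1 list had 4 genes that fell of 24 tested, against 2.66% of all genes, with a list median of -0.016. They were the 3 fibrinogen chain genes and APOH, all plasma protein genes made by liver. FGB gave 11.51 and 11.48 in the morning control, 11.09 and 11.16 with the primary pollutants, 11.80 and 11.79 in the evening control, and 10.82 and 10.96 with the PCA pollutants. Both exposed groups lay below their own controls, and the evening control above the morning control, without overlap. FGB fell by 0.91 on the log2 scale (SE 0.0773, adjusted p = 0.00108 in limma), FGA by 0.85 (SE 0.0834, adjusted p = 0.00171), FGG by 0.84 (SE 0.108, adjusted p = 0.00349) and APOH by 0.64 (SE 0.0915, adjusted p = 0.00511). After the primary pollutants FGB was at -0.37 (SE 0.0772, adjusted p = 0.378), which did not pass. The size of these values depended on the control used. FGA was 0.39 and FGG 0.42 higher there than in the morning control (adjusted p = 0.999 for both), and with the morning control in its place FGA was at -0.462, FGG at -0.427 and APOH at -0.411, under the fold limit, while FGB was at -0.608 and still called. ALB, the albumin gene and an HNF1 and FOXA target, was at 0.04 (adjusted p = 0.776; chosen after its values were seen).

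Of 29 HNF4 targets tested, 2 fell, against 2.66% of all genes, with a list median of 0.111 (-0.047 with a minimum signal of 100). With the mean of the probe sets of a gene taken instead, 3 were called. The 2 that fell, VIL1 and MYO1A, are brush border genes rather than plasma protein genes. MIA2, also on this list, was reported by the study as lower after the PCA pollutants, but it was not among the genes called here. VIL1, the actin bundler villin, gave 7.91 and 7.86 in the evening control and 7.15 and 7.16 with the PCA pollutants, and fell by 0.73 on the log2 scale (SE 0.0971, adjusted p = 0.00412 in limma). MYO1A fell by 0.73 (SE 0.103, adjusted p = 0.00493). With arrays scaled to ribosomal protein genes both were at -0.58, just under the fold limit, and VIL1 was at -0.566 against the morning control. Of 19 NR5A2 targets tested, 2 fell, against 2.66% of all genes, with a list median of -0.01. SCARB1, the receptor that takes up cholesterol from high density lipoprotein, fell by 0.67 (SE 0.0774, adjusted p = 0.00263), and SERPINA6, which encodes the cortisol carrier of plasma, by 0.61 (SE 0.0972, adjusted p = 0.00736). Neither was called with ribosomal scaling or against the morning control, where SCARB1 was at -0.543 and SERPINA6 at -0.238, and the SERPINA6 call did not hold without the second evening control array (adjusted p = 0.0526) or the first PCA array (log2 fold change -0.469).

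Of 22 FOXA targets tested, 2 fell, against 2.66% of all genes, with a list median of 0.121 (-0.018 with a minimum signal of 100). CDH1, the adhesion protein E-cadherin, gave 10.15 and 10.08 in the morning control, 9.70 and 9.71 with the primary pollutants, 10.35 and 10.35 in the evening control, and 9.29 and 9.19 with the PCA pollutants. It fell by 1.11 on the log2 scale after the PCA pollutants (SE 0.072, adjusted p = 0.000665 in limma) and was at -0.41 after the primary pollutants (adjusted p = 0.341). The difference between these responses was -0.70 (SE 0.102, adjusted p = 0.0392), a call that did not hold when any 1 of the 8 arrays was left out, with the replicate block (adjusted p = 0.0915), with no minimum signal (0.0585) or with ribosomal scaling (0.0732), and the difference was -0.23 with the controls exchanged. XBP1, a factor of the unfolded protein response and of secretion, fell by 0.62 (SE 0.0966, adjusted p = 0.00667), a call that did not hold without the second evening control array (adjusted p = 0.0504) or the first PCA array (log2 fold change -0.505), nor with ribosomal scaling (-0.477) or against the morning control (-0.461). SFTPB, which encodes a surfactant protein, was at 0.20 (adjusted p = 0.143; chosen after its values were seen).

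Among 25 C/EBP target and acute phase genes tested, the 3 fibrinogen genes fell and 1 gene rose, against 2.66% and 0.876% of all genes. The list median of 0.164 was the highest of the 9 lists. The gene that rose was CXCL8, the neutrophil chemokine IL-8, with 7.12 and 7.20 in the evening control and 7.80 and 7.87 with the PCA pollutants. Its log2 fold change was 0.68 (SE 0.0703, adjusted p = 0.00209 in limma), and -0.06 after the primary pollutants (adjusted p = 0.853). The difference between these responses was 0.74 (SE 0.0995, adjusted p = 0.0359), again a call that did not hold when any 1 array was left out, with the replicate block (adjusted p = 0.0852), with no minimum signal (0.0524) or with the controls exchanged (0.0514). The complement gene C3 was at -0.44 (adjusted p = 0.0073, under the fold limit; chosen after its values were seen).

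**Figure D3:**
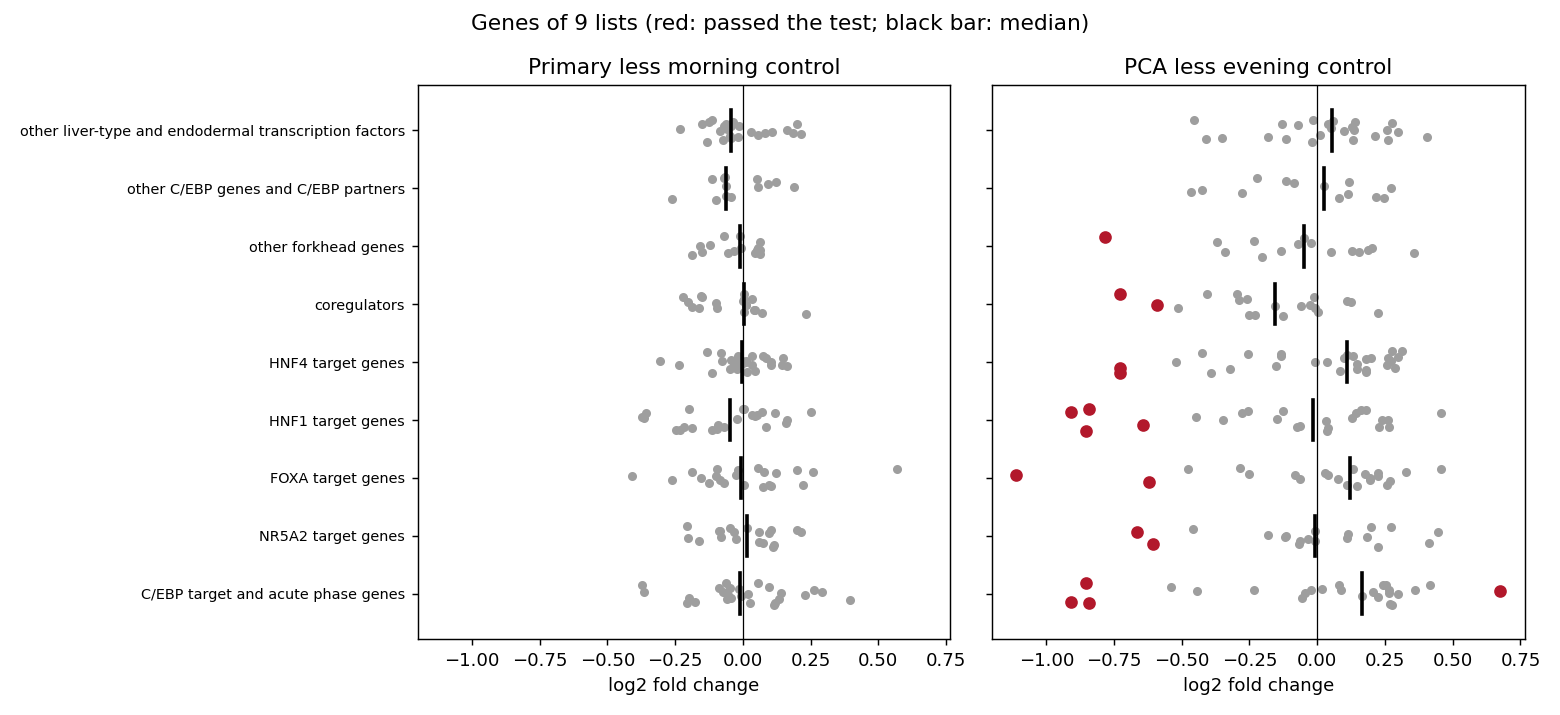
Each point is a gene of 1 of the 9 lists (y axis) by its log2 fold change (x axis) for the primary pollutants against the morning control (left) and the PCA pollutants against the evening control (right), red where it passed the test, with a black bar at the list median. On the left no point is red, and on the right the red points lie apart from medians that run from -0.155 to 0.164.

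**Figure D4:**
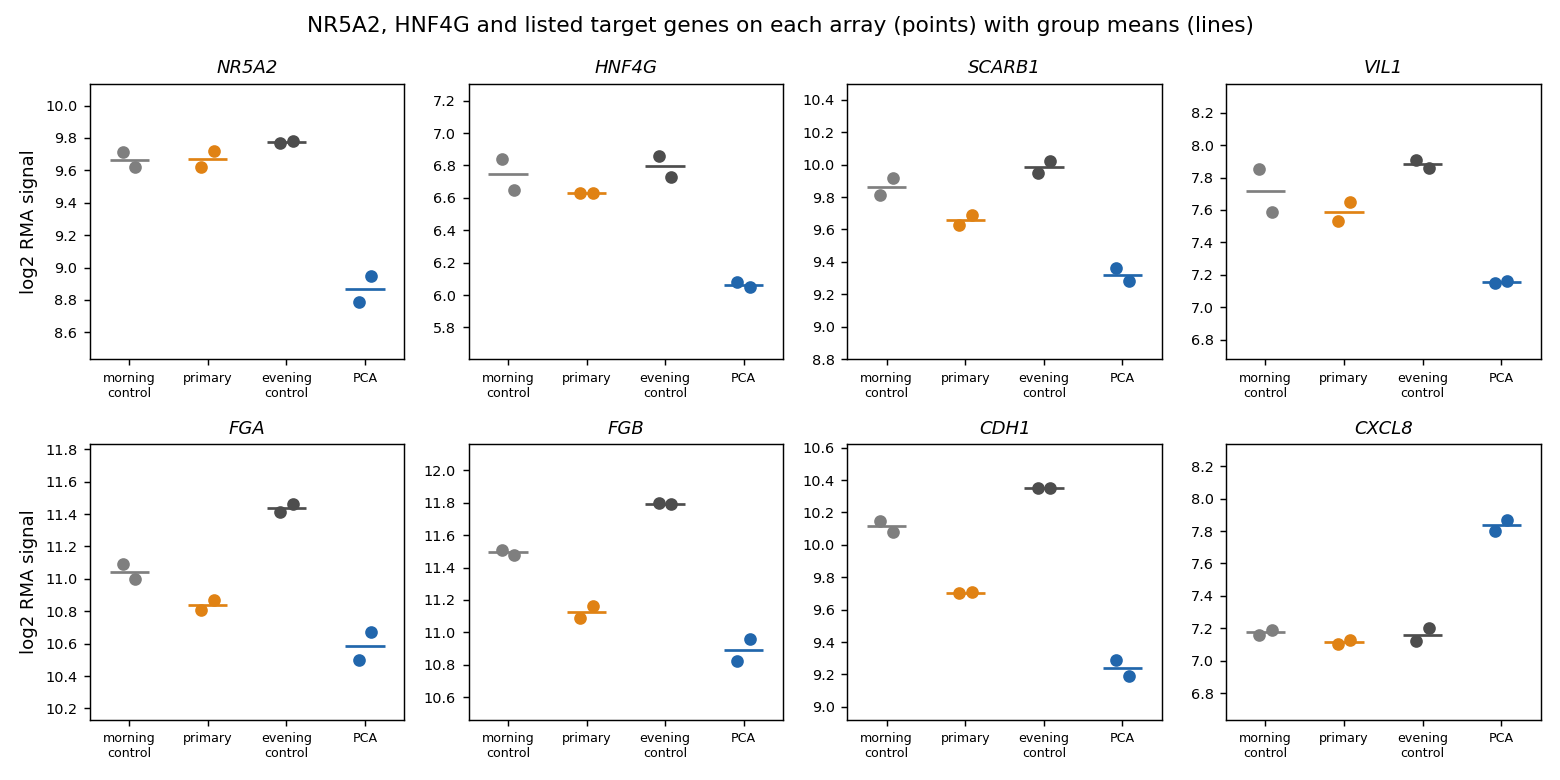
The log2 RMA signal (y axis) of NR5A2, HNF4G and 6 listed target genes in the 4 groups (x axis) is plotted with a point for each array and a line at the group mean. NR5A2 and HNF4G are low with the PCA pollutants alone, FGA, FGB and CDH1 lie below their own control with both mixtures, and CXCL8 is high with the PCA pollutants alone.

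The genes most like HNF4G and NR5A2 over the 8 arrays were sought among 216 genes with a range of at least 1 on the log2 scale, of which 66.7% were themselves called after the PCA pollutants. Pearson's r over arrays is given as a description, since the 2 PCA arrays set most of it and all genes share the same arrays. For HNF4G these were NEDD4L, a ubiquitin ligase of ion channels (r = 0.987), TCP11L2 (0.985), the kinase gene FRK (0.985), the acyltransferase gene MBOAT1 (0.981) and CIRBP, a cold-inducible RNA-binding protein (0.979). Their PCA log2 fold changes ran from -1.16 to -0.91. For NR5A2 they were RARB, a retinoic acid receptor (r = 0.992), TMEM37 (0.989), TM4SF20 (0.986), the translation inhibitor gene PDCD4 (0.985) and KLHDC2 (0.983), with PCA log2 fold changes from -1.50 to -1.06.

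Epithelial and other cell type markers were read beside these results. After the PCA pollutants 0 of 9 alveolar type II, 0 of 7 hepatocyte, 0 of 6 fibroblast, 0 of 3 leukocyte and 0 of 3 endothelial markers tested passed, and 1 of 6 epithelial markers fell, CDH1. Over all genes 3.53% were called, so sets this small cannot show whether cell types stayed the same. The 6 epithelial markers had a median of -0.128, with 4 below 0 and 2 above. After the primary pollutants 0 of them were called, but all 6 were below 0, with a median of -0.235. The reference gene ACTB was at -0.03 after the PCA and at -0.14 after the primary pollutants. The part of cell type or of the lower array correlation in the falls of NR5A2 and HNF4G was not tested.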

How the data were processed

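RNA of A549 cells was hybridised to Human Gene 1.0 ST arrays, 8 in all and 2 per group. The authors deposited log2 signals after robust multichip average normalization, and Partek 6.4 is named in the submitters' processing notes. They were used as deposited. Of 28869 probe sets, 19310 carried 1 symbol in GEO's platform annotation, and these gave 18377 genes, with the highest mean signal deciding where a gene had several. Testing required a signal of 30 or more on 1 or more arrays of the comparison.

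The fit was made with limma 3.58.1 (lmFit, contrasts.fit, eBayes; R 4.3.3) over the 8 arrays without a replicate block, and gave 4 contrasts. Calls needed a Benjamini-Hochberg adjusted p below 0.05 over all tested probe sets and a fold change of 1.5 or more. With 2 arrays against 2, an exact two-sided permutation test of 1 gene cannot go below 0.333. Simulated arrays with known changes were used to test the fit. Precision is limited by the number of arrays (median standard error of a primary log2 fold change 0.0951). The study calls the arrays of a group biological duplicates, but both came from the same exposure run, so p-values measure the spread within runs.

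The members and lists were chosen with earlier results of these data known. Named were the 8 genes, up to 5 called members of each list with the largest fold change, the member of smallest p where none was called, the 5 genes most like each called gene, and ACTB. Other names are marked in the text. Promoter and motif searches and plots used Python 3.11.15, pandas 2.3.3 and matplotlib 3.10.9. Alternatives covered the minimum signal, normalization, spread, arrays in the fit, replicate block, test, fold limit, summary of probe sets, exchanged controls and each array left out in turn.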

Additional observations from a re-analysis of the deposited data

Results flagged for a closer look

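The difference between the PCA and the primary response passed the test in limma for 3 of the genes read here. It was -0.91 on the log2 scale for NR5A2 (SE 0.118, adjusted p = 0.0359), -0.70 for CDH1 (SE 0.102, adjusted p = 0.0392) and 0.74 for CXCL8 (SE 0.0995, adjusted p = 0.0359). For each of the 3, the adjusted p rose above the threshold when any 1 array was left out, with the replicate number as a block (0.0852 for NR5A2 and CXCL8, 0.0915 for CDH1) and with no minimum signal (0.0524 for NR5A2 and CXCL8, 0.0585 for CDH1). With ribosomal scaling it did so for CDH1 (0.0732). With exchanged controls the CDH1 difference was -0.23 (adjusted p = 0.277), that of NR5A2 -0.698 (adjusted p = 0.0642) and that of CXCL8 0.705 (adjusted p = 0.0514). Groups of 2 arrays are too small for a check of single arrays against the rest of their group.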

How the results depend on the processing

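Across 20 alternatives 0 of the 8 genes were called for the primary pollutants, and across 19 alternatives 0 were called between the controls. HNF4G and NR5A2 were called for the PCA pollutants in each of 20 alternatives except limma's treat, which tests against a fold change of 1.5 (0 of the 8 genes, adjusted p = 1 and 0.527). The count of the difference between responses, 1 gene, became 2 with a minimum signal of 100 and with a trended and robust prior, and 0 with no minimum signal, treat, exchanged controls and each array left out (0 to 0). Where an array was left out, the lone array of its group was assumed to vary like the other groups.

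Same-numbered arrays did not deviate together (correlations of -0.097 for the morning control with the primary pollutants and 0.005 for the evening control with the PCA pollutants), so the numbers were not taken as pairs. With the replicate block the count of the difference between responses was 0, and over all genes it went from 77 to 2, while the count for the PCA pollutants stayed at 2.

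Counts of list genes called after the PCA pollutants moved as follows. With ribosomal scaling 0 coregulators, 0 HNF4 and 0 NR5A2 targets were called. The mean of the probe sets of a gene gave 3 HNF4 targets. An analysis of variance with unadjusted p called 0 forkhead genes. Treat called 1 FOXA target and 0 forkhead genes, coregulators, HNF4, HNF1, NR5A2 and C/EBP targets. With no fold limit 4 liver-type factors, 3 C/EBP partners, 4 forkhead genes, 5 coregulators, 5 HNF4, 7 HNF1, 4 FOXA, 4 NR5A2 and 8 C/EBP targets were called. With exchanged controls 1 C/EBP partner, 1 coregulator, 1 HNF4, 1 HNF1, 1 FOXA, 0 NR5A2 and 2 C/EBP targets were called. With 1 array left out, the ranges were 0 to 1 forkhead genes, 1 to 2 coregulators, 2 to 4 HNF4, 1 to 2 FOXA and 1 to 2 NR5A2 targets.

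Log2 values that were not called changed sign in some settings. With median centring NR5A2 for the primary pollutants was at -0.015 and the CEBPD difference at -0.028. With ribosomal scaling the primary values were 0.048 for FOXA1, 0.014 for CEBPA and 0.026 for CEBPD, the PCA values 0.085 for FOXA2 and 0.089 for CEBPD, and evening less morning 0.028 for FOXA3, 0.066 for CEBPB and 0.014 for CEBPD. With exchanged controls the primary values were -0.003 for FOXA2, -0.103 for NR5A2 and 0.002 for CEBPD, the PCA value 0.002 for FOXA2, and the differences 0.005 for FOXA2 and -0.13 for CEBPD. With 1 array left out, primary values ran from -0.133 to 0.035 for FOXA1, -0.043 to 0.05 for NR5A2 and -0.182 to 0.017 for CEBPA. PCA values ran from -0.178 to 0.058 for FOXA2 and -0.149 to 0.038 for CEBPD, and differences from -0.236 to 0 for FOXA2 and -0.079 to 0.108 for CEBPD. Evening less morning values ran from -0.042 to 0.14 for HNF4G, -0.057 to 0.18 for FOXA2, -0.178 to 0.062 for FOXA3, -0.035 to 0.181 for CEBPA and -0.06 to 0.02 for CEBPB.

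Over all genes, 617 were called after the PCA pollutants, 28 with treat, 3471 with no fold limit and 535 to 680 with 1 array left out. For the primary pollutants 0 were called, and 6 with the trended and robust prior, 10 with the analysis of variance and 25 with exchanged controls. For the difference, 77 became 16 with no minimum signal, 247 with a minimum of 100, 278 with the trended and robust prior, 33 with exchanged controls, 0 with treat and 0 to 3 with 1 array left out. Between the controls 0 became 3 with the analysis of variance. The cause of these changes was not tested.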
